A study of Homo sapiens with 6 samples.

Results

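The DEAD-box and DEAH-box RNA helicases were examined in HepG2, an established line from a human hepatocellular carcinoma, after sorafenib or its solvent. The members were all probes that the platform annotation gives a symbol of DDX or DHX, digits and at most 1 further letter. There were 82 such probes for 53 genes, and 63 probes for 44 genes were kept because 3 or more of the 6 arrays detected them at p under 0.05, out of 20120 kept probes for 11542 genes in all. A gene is represented by its kept probe with the highest mean level, and each of the 44 representative probes was detected on all 6 arrays. The control group was 3 arrays of cells kept for 24 h with DMSO, the solvent, and the sorafenib group was 3 arrays of cells kept for 24 h with the drug at a labelled dose of 3 mM. Sorafenib blocks RAF and several receptor tyrosine kinases. The dose unit is the label's and could not be checked from the files. The comparison asks which helicase transcripts differ with the drug in this line.

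RNA helicases of these families use ATP to open short RNA duplexes or to strip proteins from RNA, and they are named for the amino acids of a conserved motif. Separate members act at separate steps in the life of an RNA: in the nucleolus on ribosome precursors, in the spliceosome, at the nuclear pore, on translating ribosomes, in mRNA decay and in the sensing of viral RNA.

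Mean intensity per array was 739 to 1050, and 19440 to 20138 of the 47323 probes were detected at p under 0.05. Of 10 hepatocyte markers chosen to check the cell type, 8 had a named probe and all 8 were detected, and their summed intensity was 186625 to 199971 in control and 166551 to 191717 with sorafenib. Of 9 markers of blood and stromal cells with a named probe, 8 were not detected, among them PTPRC and COL1A1, and only ACTA2 was. The summed intensity of those 9 was 11495 to 13964 in control and 8255 to 10619 with sorafenib, and its part in the results below was not tested. The RNA came from whole cultures, so a change in some cells and a smaller change in all cells cannot be told apart. Whether the replicates were grown separately is not in the labels, so the spread behind each p-value is that between arrays and may be technical.

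With sorafenib, 12 of the 44 tested helicase genes rose and 1 fell, 13 genes in all (limma, Benjamini-Hochberg adjusted p under 0.05 over all 20120 probes). Of all 11542 genes, 8.44% rose and 11.6% fell by the same rule, 20.0% in all. The rises were modest: the largest was 0.67 on the log2 scale, a 1.59-fold change, in DHX33. The 1 fall, in DHX58, was by 0.93. The median log2 difference was 0.17 over the 44 genes and 0.00 over all genes, and 36 of the 44 were above 0. The 2 groups of arrays did not overlap for 22 helicase genes that were higher with sorafenib and for 3 that were lower, where 21.6% and 23.3% of all genes were so placed, 44.9% together. The median within-group SD was 0.09 for the helicases and 0.13 for all tested genes, but these sets were not matched for level. Among the helicases DDX5 varied least (SD 0.03) and DDX51 most (SD 0.43).

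**Figure D1:**
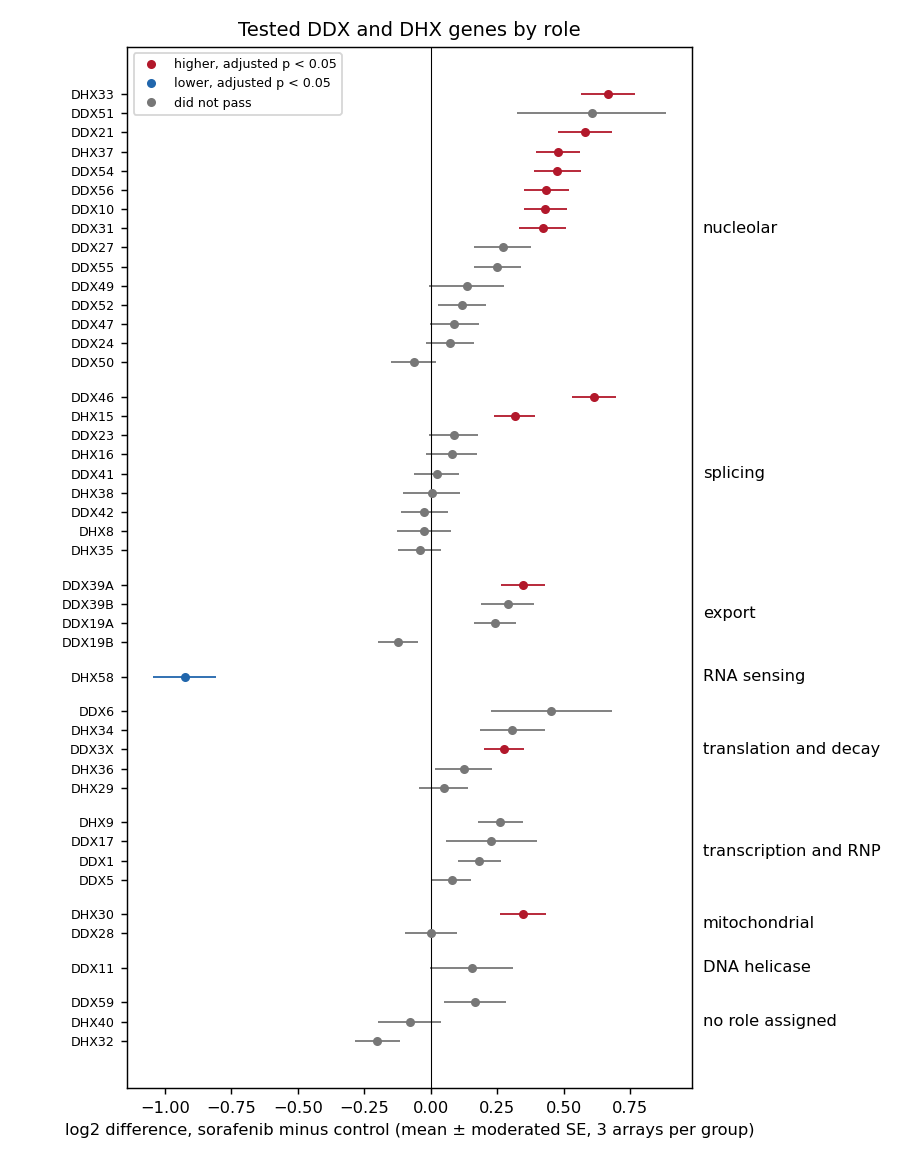
The log2 difference between sorafenib and control (horizontal axis, mean ± moderated SE, 3 arrays per group) is shown for each of the 44 tested helicase genes, grouped by role. Of the 15 nucleolar genes 14 lie above 0, while the splicing genes other than DDX46 and DHX15 lie within 0.09 of 0 and DHX58 stands alone at -0.93.

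The nucleolar helicases, which remodel ribosomal RNA precursors, held 7 of the 12 rises. All 15 annotated genes of this role were tested, and 7 rose (46.7%, against 8.44% of all genes) and none fell. Their median log2 difference was 0.42. That median was 0.25 with the mean of each gene's kept probes and 0.30 without sorafenib replicate 1. On the log2 scale DHX33, a DEAH-box helicase linked to transcription of ribosomal RNA genes, was at 10.20, 10.08 and 10.11 in control replicates 1 to 3 and at 10.96, 10.66 and 10.76 with sorafenib. It rose by 0.67 ± 0.10 (moderated SE over 3 arrays in each group; adjusted p = 0.00878 in limma). DDX21, which acts in transcription and processing of ribosomal RNA, was at 13.03, 13.04 and 12.77 in control and at 13.46, 13.53 and 13.59 with sorafenib. The groups were apart for both genes, with control replicate 3 the lowest array for DDX21, which rose by 0.58 ± 0.10 (adjusted p = 0.0135). When sorafenib replicate 2 was left out, the DDX21 call was lost (adjusted p = 0.0519).

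DHX37, which frees the U3 small nucleolar RNA from precursors of the small ribosomal subunit, was at 11.38, 11.50 and 11.51 in control and at 11.87, 11.99 and 11.98 with sorafenib. DDX54, a nucleolar helicase also known as a corepressor of nuclear receptors, was at 8.06, 8.14 and 8.04 and then at 8.42, 8.61 and 8.63. DDX56, which takes part in assembly of the large subunit, was at 11.20, 11.28 and 11.32 and then at 11.65, 11.66 and 11.79. In each of these genes the lowest sorafenib array stood above the highest control array. They rose by 0.48 ± 0.08, 0.48 ± 0.09 and 0.44 ± 0.08 (SE, n = 3; limma, adjusted p = 0.0128, 0.0165 and 0.0172). With median scaling none of them passed (adjusted p = 0.0609, 0.0985 and 0.0787).

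DDX10, the counterpart of a yeast helicase of small subunit assembly, was at 10.76, 10.76 and 10.75 in control and at 11.09, 11.22 and 11.25 with sorafenib. The control arrays were nearly level for it, and it rose by 0.43 ± 0.08 (SE, n = 3; limma, adjusted p = 0.0162). DDX31, the counterpart of a yeast helicase of large subunit assembly, was at 8.81, 8.83 and 8.64 in control and at 9.11, 9.20 and 9.23 with sorafenib, again without overlap. It rose by 0.42 ± 0.09 (adjusted p = 0.0235), but a dimmer probe of DDX31, detected on 2 control arrays and 1 sorafenib array, differed by -0.01 ± 0.17. With median scaling neither DDX10 nor DDX31 passed (adjusted p = 0.0947 and 0.147).

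The other 8 nucleolar genes did not pass, and their differences ran from -0.06 to 0.61. The largest belonged to DDX51, which acts in processing of the large ribosomal RNA and is named here after its values were seen. It was at 10.97, 10.44 and 10.86 in control and at 11.98, 11.13 and 10.97 with sorafenib, so that sorafenib replicate 1 stood far above the other arrays and the groups were barely apart. Its difference was 0.61 ± 0.28 (adjusted p = 0.188), and its other kept probe gave 0.43 ± 0.12 (adjusted p = 0.0517). DDX50, the close paralog of DDX21 and its direct neighbour on chromosome 10, was at 10.47, 10.63 and 10.49 in control and at 10.48, 10.52 and 10.41 with sorafenib. The groups overlapped for DDX50, whose difference was -0.06 with a 95% interval of -0.26 to 0.14, while the interval of DDX21 was 0.34 to 0.82. The difference between these paralogs was not itself tested, and DDX50 was named outside the rule for named genes.

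**Figure D2:**
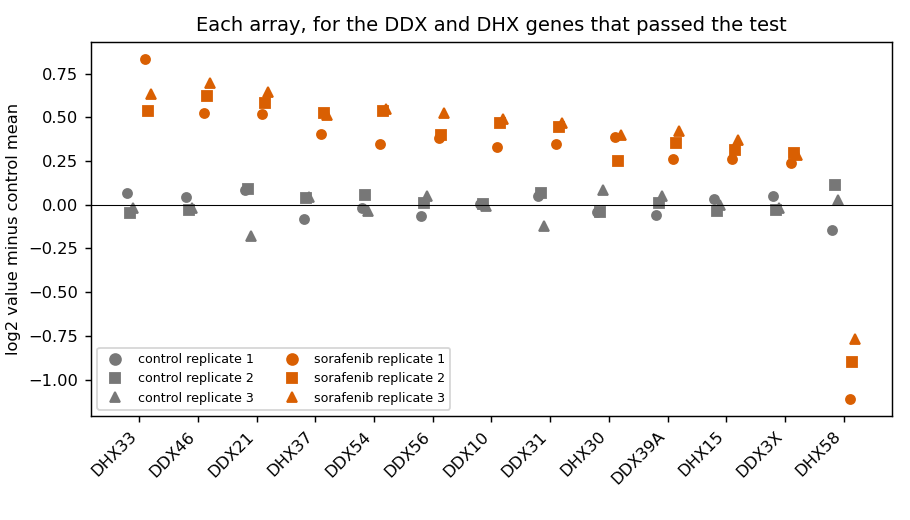
Each point is 1 array, as its log2 value minus the control mean of the gene (vertical axis), for the 13 helicase genes that passed the test. All 3 sorafenib arrays lie above all 3 control arrays in the 12 genes that rose and below them in DHX58, and sorafenib replicate 1 is the most extreme array for DHX33 and for DHX58.

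The promoters of the nucleolar helicases that rose were searched for CACGTG, the E-box bound by MYC and related factors, in RefSeq windows of 300 bases from GRCh38.p14 (250 before to 50 after a gene start). Promoters of 40 of the 44 tested genes were in the table. CACGTG reads the same on both strands. It was in a window of 4 of the 6 matched nucleolar genes that rose, in 0 of 6 matched nucleolar genes that did not pass, in 0 of 5 other helicase genes that rose and in 5 of 23 other helicase genes that did not pass. Of all 27305 genes with a window 8.77% had it, and over single windows 7.26%. DDX21 has 2 windows and DDX31 has 3, and more windows give more chances of a match. The 4 matches in rising nucleolar genes are shown 5′ to 3′ on the strand of the gene with 30 bases on each side where the window allows, the E-box in capitals.
DDX21, chr10:68956586-68956651, plus strand: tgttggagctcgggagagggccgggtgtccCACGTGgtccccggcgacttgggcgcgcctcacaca
DDX31, chr9:132669970-132670035, minus strand: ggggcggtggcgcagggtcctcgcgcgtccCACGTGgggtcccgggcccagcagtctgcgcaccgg
DDX54, chr12:113185504-113185569, minus strand: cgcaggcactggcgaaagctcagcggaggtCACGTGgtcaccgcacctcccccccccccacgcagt
DHX37, chr12:124989082-124989120, minus strand: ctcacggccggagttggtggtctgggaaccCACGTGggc
In DDX21, DDX31 and DDX54 the E-box starts 31, 22 and 61 bases before the gene start, and in DHX37 it lies after the start. The split of the promoters by test outcome was made after the values were seen, and a match is a description of these letters, not evidence that a factor binds there.

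Proteins that work beside the nucleolar helicases in ribosome assembly were also measured. Of 18 tested partners from a list of such factors, 16 rose and none fell, and their median log2 difference was 0.45. By the same rule 8.44% of all genes rose and 11.6% fell. The list was chosen with earlier results of these data known, so the count is no separate support for the nucleolar rises. With median scaling 7 of the 16 passed. A block for the replicate number left 15, PINX1 being lost (adjusted p = 0.0584). RRP9, a U3 small nucleolar ribonucleoprotein component, was at 7.84, 8.00 and 7.93 in control and at 8.64, 8.92 and 9.06 with sorafenib, a rise of 0.95 ± 0.12 (SE, n = 3; limma, adjusted p = 0.00554). Without background correction the difference of RRP9 was 0.70. NOL6 and BOP1, factors of small and large subunit assembly, rose by 0.78 ± 0.08 and 0.75 ± 0.08 (adjusted p = 0.00272 and 0.00252). The 2 that did not pass, NCL and RRP1B, each differed by 0.25.

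Among the 9 splicing helicases, which drive rearrangements of the spliceosome, 2 rose (22.2%, against 8.44% of all genes) and none fell. Their median difference was 0.02. DDX46, the human counterpart of yeast Prp5, which helps the U2 particle to engage the branch site, was at 9.28, 9.20 and 9.22 in control and at 9.76, 9.85 and 9.93 with sorafenib. The groups lay far apart relative to their spread, and DDX46 rose by 0.61 ± 0.08 (SE, n = 3; limma, adjusted p = 0.00605). DHX15, the counterpart of yeast Prp43, which takes spent spliceosomes apart and also acts in ribosome assembly, was at 12.89, 12.82 and 12.85 in control and at 13.12, 13.17 and 13.23 with sorafenib. It rose by 0.32 ± 0.08 (adjusted p = 0.0354), and a second probe gave 0.36 ± 0.11 (adjusted p = 0.0692). The DHX15 call was lost with median scaling (adjusted p = 0.198) and when any 1 array was left out. The other 7 (DDX23, DDX41, DDX42, DHX8, DHX16, DHX35 and DHX38) differed by -0.04 to 0.09, with adjusted p of 0.571 or more.

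Of 18 tested spliceosome proteins outside the helicase names, 2 rose (11.1%, against 8.44% of all genes) and none fell. Their median difference was 0.09. PRPF4, a component of the U4/U6 particle, rose by 0.42 ± 0.07 (SE, n = 3; limma, adjusted p = 0.0125). PRPF31, of the same particle, rose by 0.33 ± 0.09 (adjusted p = 0.0474) and did not pass with the replicate number as a block (adjusted p = 0.0511). Neither passed with median scaling (adjusted p = 0.0925 and 0.202).

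The 4 export helicases work at successive steps: DDX39A and DDX39B load export factors on mRNA in the nucleus, and DDX19A and DDX19B release them on the outer face of the pore. DDX39A was at 12.06, 12.13 and 12.17 in control and at 12.39, 12.47 and 12.55 with sorafenib, without overlap, and rose by 0.35 ± 0.08 (SE, n = 3; limma, adjusted p = 0.0345). It did not pass with median scaling (adjusted p = 0.163) or when any 1 array was left out. DDX39B, its close paralog, was at 12.51, 12.63 and 12.59 and then at 12.86, 12.72 and 13.02, a difference of 0.29 ± 0.10 that did not pass (adjusted p = 0.0954). DDX19A was at 10.62, 10.68 and 10.76 in control and at 10.97, 10.88 and 10.94 with sorafenib. Its groups did not overlap, but its difference of 0.24 ± 0.08 did not pass (adjusted p = 0.0849).

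DDX19B, the neighbour of DDX19A on chromosome 16 and its near-identical paralog, was at 12.05, 12.10 and 12.14 in control and at 11.98, 12.00 and 11.94 with sorafenib. All 3 sorafenib arrays were thus a little lower, by 0.12 ± 0.07 (SE, n = 3; limma, adjusted p = 0.303). Its other kept probes gave -0.11 and 0.15, and those of DDX19A gave 0.12 and 0.10, and probes of such similar genes may bind transcripts of both. Of 13 export factors outside the helicase names 1 rose (7.69%, against 8.44% of all genes), none fell, and the median was -0.03. That gene was ALYREF, an adaptor that DDX39B places on mRNA, which rose by 0.69 ± 0.15 (adjusted p = 0.0265), or by 0.34 without background correction.

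Among the DDX and DHX genes assigned to the sensing of foreign RNA, 1 was tested, DHX58, and it was the 1 of the 44 that fell. It encodes LGP2, an interferon-induced regulator of the receptors that detect viral double-stranded RNA. DHX58 was at 7.51, 7.77 and 7.68 in control and at 6.54, 6.75 and 6.88 with sorafenib, so the highest sorafenib array was well under the lowest control array. It fell by 0.93 ± 0.12 (SE, n = 3; limma, adjusted p = 0.00539), a level 1.90-fold higher in control. The signal was modest, and without background correction the difference was -0.51. The probes of DDX60 and DDX60L, which are neighbours on chromosome 4, were not detected on any array.

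A receptor of the same group that the naming rule leaves out, IFIH1, which encodes MDA5, was at 8.51, 8.52 and 8.63 in control and at 7.75, 7.92 and 8.09 with sorafenib. It fell by 0.63 ± 0.11 (SE, n = 3; limma, adjusted p = 0.0124). Of 14 tested partners and targets of these sensors, 4 passed as lower and 1 as higher, where 11.6% of all genes fell and 8.44% rose. The interferon-induced genes IFIT1, MX1 and ISG15 differed by -1.98 ± 0.17, -0.58 ± 0.09 and -0.38 ± 0.08, and OAS1 rose by 0.52 ± 0.10 (adjusted p = 0.00139, 0.00858, 0.0237 and 0.0188). Without background correction the difference of IFIT1 was -1.23. With median scaling MX1, ISG15 and OAS1 did not pass (adjusted p = 0.0509, 0.221 and 0.0850). The fourth, IFIT3, was detected on 3 control arrays but on 1 sorafenib array, so it was kept through the group where it was high and its sorafenib level is mostly not above background. Its fitted difference was -1.14 (adjusted p = 0.0245), or -0.46 without background correction. The signalling genes MAVS, TBK1 and IRF3 differed by 0.05, -0.09 and 0.15 and did not pass (adjusted p = 0.712, 0.493 and 0.279).

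Of 5 tested helicases of translation and mRNA decay, 1 rose (20%, against 8.44% of all genes), none fell, and the median difference was 0.27. DDX3X, which helps ribosomes to start on structured mRNAs, was at 12.82, 12.74 and 12.75 in control and at 13.01, 13.07 and 13.05 with sorafenib. The groups were apart, and the rise of 0.27 ± 0.07 was just inside the threshold (SE, n = 3; limma, adjusted p = 0.0497) and just outside it with the replicate number as a block (adjusted p = 0.0648). DDX6, which acts in decapping and in processing bodies, was at 6.20, 5.76 and 5.83 in control and at 6.82, 6.37 and 5.96 with sorafenib. Its groups overlapped, its difference was 0.45 ± 0.23 (adjusted p = 0.221), and it was 0.18 without background correction. DHX29, DHX34 and DHX36, known from scanning of start sites, nonsense-mediated decay and unwinding of G-quadruplexes, had differences of 0.05, 0.31 and 0.12 and did not pass.

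None of 4 tested helicases of transcription and RNP assembly passed, although all were above 0. DHX9, a nuclear helicase that links transcription factors to RNA polymerase II, was at 9.75, 9.80 and 9.86 in control and at 10.08, 9.97 and 10.14 with sorafenib. Its groups did not overlap and its difference was 0.26 ± 0.08 (SE, n = 3; limma, adjusted p = 0.0776). The groups overlapped at its other kept probes, which gave 0.14 ± 0.18 and 0.03 ± 0.16 (adjusted p = 0.621 and 0.911). With the mean of its kept probes DHX9 differed by 0.15 (adjusted p = 0.329). DDX5, a coregulator of transcription, was at 14.07, 14.05 and 14.05 and then at 14.10, 14.17 and 14.14. The sorafenib arrays were all slightly higher for DDX5, whose difference was 0.08 with a 95% interval of -0.09 to 0.25 (adjusted p = 0.503). DDX17, its paralog, was at 8.70, 8.54 and 8.77 in control and at 9.26, 8.61 and 8.83 with sorafenib, where replicate 1 alone was high, and its difference was 0.23 ± 0.17 (adjusted p = 0.407). DDX1, a part of the tRNA ligase complex, differed by 0.18.

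Both mitochondrial helicases, which act in assembly of mitochondrial ribosomes, were tested. DHX30 was at 10.57, 10.57 and 10.70 in control and at 11.00, 10.87 and 11.02 with sorafenib, and it rose by 0.35 ± 0.09 (SE, n = 3; limma, adjusted p = 0.0382). Its second probe rose by 0.34 ± 0.08 (adjusted p = 0.0260), which made DHX30 the 1 gene of 15 with several kept probes for which every probe passed. Even so, the DHX30 call was lost in 8 of 18 alternative fits. These were median scaling (adjusted p = 0.131), no filter on dim probes (adjusted p = 0.0712) and each fit with 1 array left out. DDX28 differed by 0.00 with a 95% interval of -0.23 to 0.24. DDX11, a DNA helicase of sister chromatid cohesion, differed by 0.15, and DDX59, DHX32 and DHX40, to which no role was assigned, differed by 0.17, -0.20 and -0.08 and did not pass.

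No probe was kept for 9 genes. These were the germ-line members DDX4, DDX25, DDX43 and DDX53, the Y-linked DDX3Y, the 2 sensing genes named above, DHX57, and DDX20, a part of the SMN complex. All but 2 of the 19 probes that were left out were detected on no array, and a dim probe does not show that its gene is silent. At the limit of the filter, the DDX31 probe detected on 3 arrays had log2 values of 5.44 to 6.04, and a DHX9 probe detected on 2 had 5.18 to 5.80.

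Probes of the same gene did not always move together. Of the 15 genes with several kept probes, 9 had probes of the same sign and 6 did not. Counted by probe, 13 of 63 rose and 1 fell, where 7.27% of all kept probes rose and 9.45% fell, 16.7% together. DHX37 showed the widest gap: its representative probe rose by 0.48, and a probe near background, at 5.96, 6.53 and 6.16 in control and at 5.79, 6.17 and 6.60 with sorafenib, differed by -0.03 ± 0.23 (SE, n = 3). With the mean of the kept probes of each gene, DHX37 and DDX31 differed by 0.22 and 0.21 and missed the threshold (limma, adjusted p = 0.288 and 0.241). DHX40, named after its values were seen, differed by -0.08 at its brightest probe and by -0.32 ± 0.10 and -0.39 ± 0.13 at the others (adjusted p = 0.0670 and 0.0918).

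**Figure D3:**
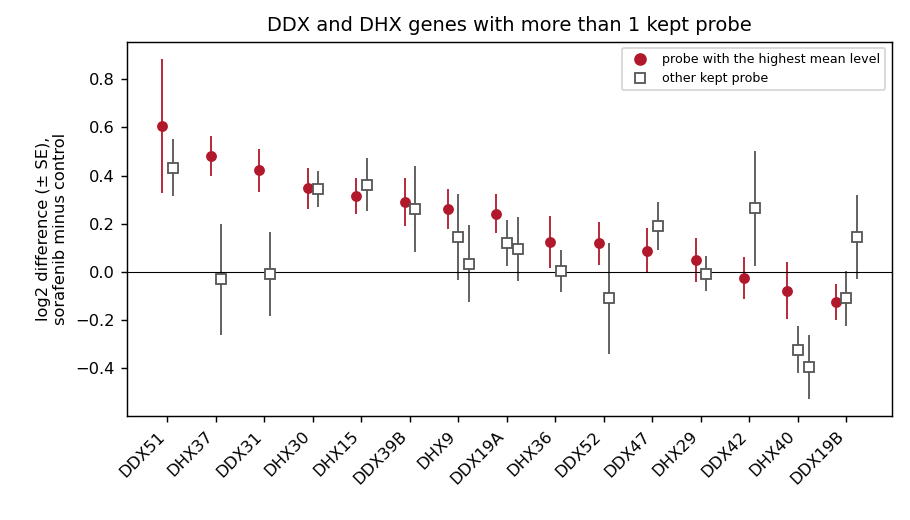
The log2 difference ± SE (vertical axis) is shown for every kept probe of the 15 helicase genes with more than 1, with the probe of the highest mean level filled and the others open. Both DHX30 probes and both DHX15 probes lie close together, while the open probes of DHX37 and DDX31 lie at -0.03 and -0.01.

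Set against all genes, 35 of the 44 helicase genes lay above the median of all tested genes. Of the 44 genes, 21 were above the 75th percentile of all tested genes, at 0.20, and 4 were above the 95th, at 0.55. Only 1, DHX58, was below the 25th percentile, at -0.20, and it was also below the 5th, at -0.65. The 29 helicase genes outside the nucleolar role had a median difference of 0.12. Of these, 5 rose (17.2%, against 8.44% of all genes) and 1 fell. The DDX genes had a median of 0.23 over 29 genes and the DHX genes 0.08 over 15. Of 13 tested helicases that lack a DDX or DHX symbol, 2 fell, IFIH1 and MOV10, where 11.6% of all genes fell. None of the 13 rose, 6 were above 0, and the median was -0.05. DQX1, a DEAQ-box gene named after its values were seen, differed by -0.60 ± 0.21 and did not pass (adjusted p = 0.0965), but passed in the blocked fit (adjusted p = 0.0184). Median scaling gave DQX1 an adjusted p of 0.0362. EIF4A1, the helicase of the cap-binding complex, had a difference of 0.25 ± 0.07 (SE, n = 3; adjusted p = 0.0622 in limma). MOV10, an RNA helicase active against retroelements, fell by 0.51 ± 0.12 (adjusted p = 0.0327) but did not pass with median scaling (adjusted p = 0.0703). These medians are descriptions of chosen lists and were not compared by a test.

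**Figure D4:**
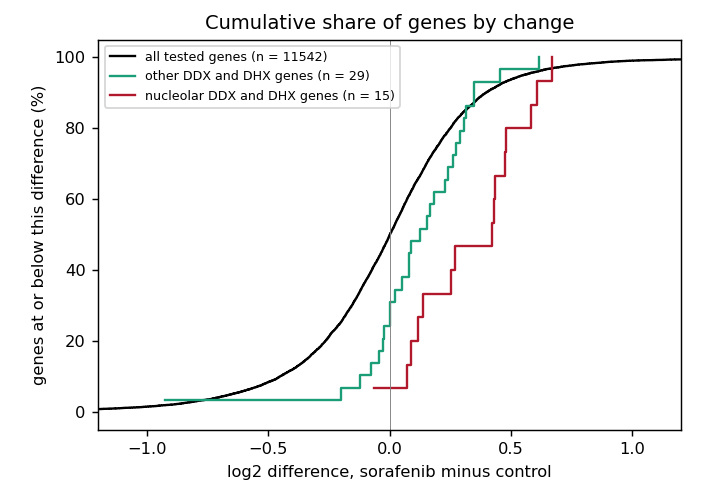
The share of genes at or below each log2 difference (vertical axis, percent) is drawn for all 11542 tested genes, for the 15 nucleolar helicase genes and for the 29 others. The nucleolar curve lies to the right, with a median of 0.42 against 0.12 for the other helicases and 0.00 for all genes, and the axis is limited to differences between -1.2 and 1.2.

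How many helicases passed depended on the arrays and the scaling. Of the 44 genes, 2 rose without sorafenib replicate 2 (4.55%, against 3.10% of all genes), 4 without control replicate 1 (9.09% against 4.23%), 5 without control replicate 2 (11.4% against 3.60%), 6 without control replicate 3 (13.6% against 4.27%) and 7 without sorafenib replicate 3 (15.9% against 5.31%). With arrays scaled to a common median 3 rose (6.82% against 4.17%). The nucleolar count was 1 without sorafenib replicate 2, 3 and 4 without control replicates 1 and 2, and 2 with median scaling. Only DHX33, DDX46 and DHX58 passed in each of the 18 alternatives tried. DDX21 passed in 17, DHX37 in 15, and DDX10, DDX54 and DDX56 in 14 each. DDX31 passed in 11, DDX39A, DHX15 and DHX30 in 10 each, and DDX3X in 9. All 13 called genes kept their direction in each of the 18 alternatives.

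**Figure D5:**
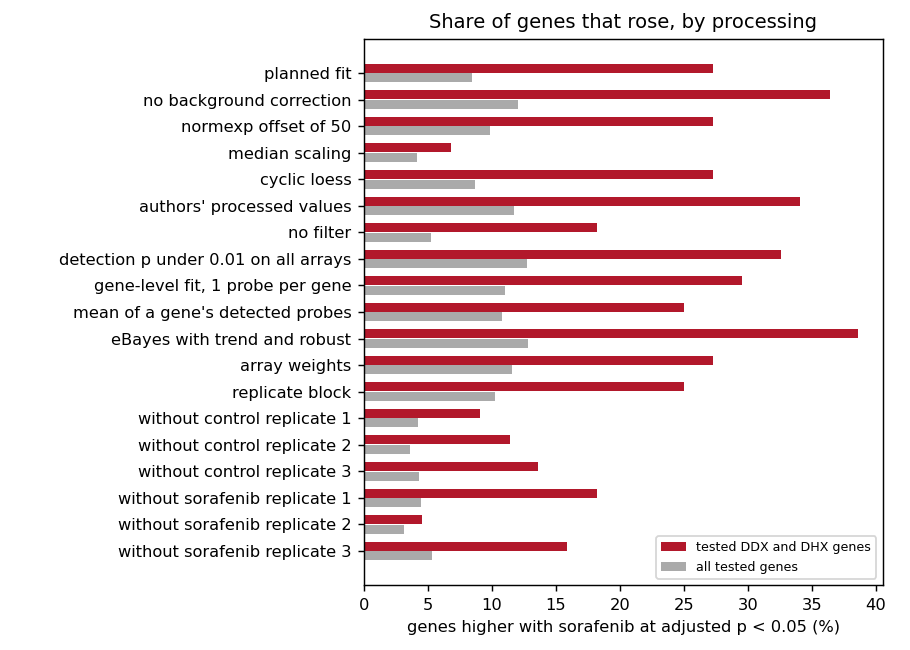
Bars give the percentage of genes that were higher with sorafenib at an adjusted p under 0.05 (horizontal axis, from 0) for the 44 tested helicase genes (43 with the stricter detection filter) and for all tested genes under the planned fit and 18 alternatives. The helicase bar is the longer in each, and the gap is smallest without sorafenib replicate 2, at 4.55% against 3.10%.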

How the data were processed

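RNA of 3 samples per group was measured on Illumina BeadChips, per the labels' protocols. The authors deposited an intensity for each of 47323 probes on each array in 2 tables, which the file headers call not normalized. Each deposited intensity has a detection p-value beside it, per the file headers. The deposited processed values are log2 intensities that were quantile normalized, which was checked within 0.000374. The scanner software and genome build are not given in the sources used here. No pair of arrays was identical, and log2 values correlated at 0.991 to 0.995 within groups over genes.

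Intensities went through the steps of neqc in limma. Background was corrected by normexp (control-probe levels derived from detection p-values, offset 16), and intensities were quantile normalized and then put on the log2 scale. Probes were named from the platform annotation (1 symbol for 30113 probes, several for 8, none for 17202), and all 53 member genes matched RefSeq (GRCh38.p14) by gene number with unchanged symbols. Groups were taken from the sample titles. Sorafenib was compared with control by lmFit and eBayes over all 20120 kept probes, two-sided, with Benjamini-Hochberg adjustment; differences are sorafenib minus control and each error is the moderated SE. On simulated data for this comparison, 200 of 20120 probes were changed in each of 10 draws. Of probes changed by 0.5 on the log2 scale 15.2% were recovered, and of those changed by 1 64.9%, and 4.42% of calls were false. The real fit called 16.7% of probes, a larger share than was changed in the simulation, so these recovery shares need not hold for the real data. Simulated noise was independent between arrays, unlike that of the real arrays described below, so the share of false calls need not hold either.

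The rule for named genes took up to 10 called members with the greatest change in each direction and a fixed set of well-known members where detected. DDX50 and DDX39B, paralogs of named genes, were added outside that rule, and others were named by count or as stated. The members and lists were chosen with earlier results of these data known. Arrays with the same replicate number deviated together (correlations 0.304, 0.296 and 0.416, each above 0.1, from these data alone), so the number was also fitted as a block. Alternatives covered background correction, normalization, the authors' processed values, the detection filter, the handling of several probes, the variance model, array weights, the block and leaving out each array. Protein sequences were not used here. The analysis used R 4.3.3, limma 3.58.1, statmod 1.5.0, Python 3.11.15 and matplotlib 3.10.9.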

Additional observations from a re-analysis of the deposited data

How the results depend on the processing

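The 12 helicase genes that rose became 3 under median scaling, and 2 to 8 when 1 array was left out. In the other alternatives the count was 8 to 17, and the 1 fall remained in all 18. With the replicate number as a block 11 rose and 1 fell, and among the genes of the naming rule the block changed the call of DDX3X alone. None of the 13 called helicases changed direction in any alternative, but 9 of the other helicases did (DDX28, DDX41, DDX42, DDX49, DHX8, DHX29, DHX35, DHX38 and DHX40), with differences of -0.08 to 0.14 as reported. Over the genes of the naming rule and the alternatives, 276 results kept their side of the threshold, 56 lost a call and 9 gained one. The losses came with median scaling, with no filter on dim probes, with the mean of a gene's probes, with the block or with an array left out, and the cause was not tested. The gains were for DDX19A and DHX9. Over all 44 helicases 6 gained a call in at least 1 alternative, the others being DDX1, DDX39B, DDX51 and DDX55. With 3 arrays per group the precision is limited, and dim probes such as those of DHX58 and DDX6 gave smaller differences without background correction.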
